A study of Mus musculus with 8 samples.

Results

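The 10 genes described here are adipogenic transcription factors (Pparg, Cebpa, Cebpb, Cebpd) and genes of fatty acid and lipid handling (Fabp4, Lpl, Plin2, Cd36, Angptl4, Adipoq), taken by gene symbol from 55276 symbols in the deposited tables. They were measured by RNA-seq in fibro-adipogenic progenitors (FAPs), the interstitial mesenchymal cells of skeletal muscle, which were sorted by GFP from the freeze-pierce injured tibialis anterior of adult mice. Control animals were Osr1 flox/+ with CAGG Cre+ and Osr1cKO animals Osr1 flox/flox with CAGG Cre+, so that every animal carried the tamoxifen-inducible CreER under the ubiquitous CAGG promoter, received tamoxifen from the day of injury, and held at least 1 allele in which recombination replaces Osr1 by eGFP. The control is therefore heterozygous for Osr1, and only recombined cells with an active Osr1 locus could be sorted in either genotype. Cells were taken at 3 and at 7 days post-injury (dpi), with 2 libraries for each genotype and day, 8 libraries in all. At 3 dpi a library came from a single mouse and at 7 dpi from a pool of mice, so that the effect of the day, of pooling and possibly of the sequencing instrument cannot be told apart.

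Adipogenesis is a cascade of transcription factors. In cultured preadipocytes, C/EBPβ and C/EBPδ are induced early by hormonal and cAMP signals and bind the genes of C/EBPα and PPARγ, which then maintain each other's transcription and switch on the genes of the lipid-storing adipocyte. FAPs are the cells from which adipocytes form in muscle that heals poorly, whereas after an acute injury most of them pass through a matrix-producing state and do not store fat. PPARγ and its relatives PPARα and PPARδ bind fatty acids, and Plin2, Angptl4, Cd36, Fabp4 and Lpl are all known PPAR targets that are also used by cells other than adipocytes.

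The libraries held between 36516528 and 51096358 fragments on genes, recovered from the deposited TPM (a length-normalized share of all transcripts). The targeted gene Osr1 stood at 105 and 91.0 TPM in control and 70.7 and 71.9 in Osr1cKO at 3 dpi, and at 67.6 and 71.6 against 64.4 and 60.8 TPM at 7 dpi; a value per gene does not separate the deleted part from the rest of the transcript. The sorted cells carried the markers of FAPs at high level: the 16 FAP markers summed to between 33894 and 65350 TPM per library. Control replicate 1 at 3 dpi stood apart. It differed from control replicate 2 by more than 1 on the log2(TPM + 1) scale for 4.81% of 17371 genes. That share was 2.23% between the Osr1cKO libraries at 3 dpi and 1.12% and 0.921% in the pairs at 7 dpi. Control replicate 1 also had the lowest FAP marker sum, which Col1a1 led, at 12404 TPM against 22891 in control replicate 2. By gene, 11 of the 16 FAP markers were higher in control replicate 1 than in control replicate 2, and 5 were lower. In bulk RNA, fewer cells of a type and less RNA per cell cannot be told apart.

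RNA that defines fat cells was at or near 0. Of 20 adipocyte markers, 16 stayed under 1 TPM in every library, and their summed level lay between 2.77 and 9.54 TPM. Lep, the hormone of white fat, was at 0 in all 8 libraries, and Plin1, which coats the large lipid droplet of adipocytes, reached at most 0.225 TPM. Lipe, the hormone-sensitive lipase, led the list with 1.34 to 3.53 TPM and is not restricted to fat. The adipocyte marker sum was 9.54 and 5.86 TPM in control and 2.99 and 2.77 in Osr1cKO at 3 dpi, and 7.47 and 4.85 against 6.20 and 6.94 TPM at 7 dpi. In the paper, cells were stained for hematopoietic and endothelial surface antigens before sorting. The paper reports GFP only in cells without these antigens, and shows this for muscle of the earlier day. Marker RNA of other cell types was nevertheless detected in the sorted libraries, and was higher at 7 dpi than at 3 dpi. The source of this RNA was not tested. The 16 macrophage markers summed to 14.0 to 31.1 TPM at 3 dpi and 63.5 to 109 TPM at 7 dpi, with Ptprc, the pan-leukocyte antigen CD45, at or under 0.216 TPM throughout. The 12 endothelial markers summed to 20.4 to 48.8 TPM and then 53.2 to 80.5 TPM. A single gene, Tek, led this sum, at 14.9 to 25.4 TPM at 3 dpi and 36.3 to 58.4 TPM at 7 dpi. Pecam1 reached at most 1.19 TPM at 3 dpi and 6.25 TPM at 7 dpi. The 8 pericyte and smooth muscle markers summed to 37.2 to 61.2 TPM and then 67.9 to 146 TPM. Muscle stem cell markers (10 genes) went from a range of 17.6 to 35.0 TPM to 40.5 to 84.7 TPM. Des led their sum, at 8.85 to 27.8 TPM at 3 dpi and 22.7 to 31.7 TPM at 7 dpi. Pax7, Myf5 and Myod1 were each at or under 0.110 TPM at 3 dpi and between 0.170 and 4.68 TPM at 7 dpi. Erythroid markers (6 genes) went from 0 to 1.47 TPM to 11.7 to 54.2 TPM. The 12 myofiber markers summed to 10.3 to 16.5 TPM at 3 dpi, and at 7 dpi to 87.7 and 74.7 TPM in control and 50.2 and 50.6 in Osr1cKO.

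**Figure D1:**
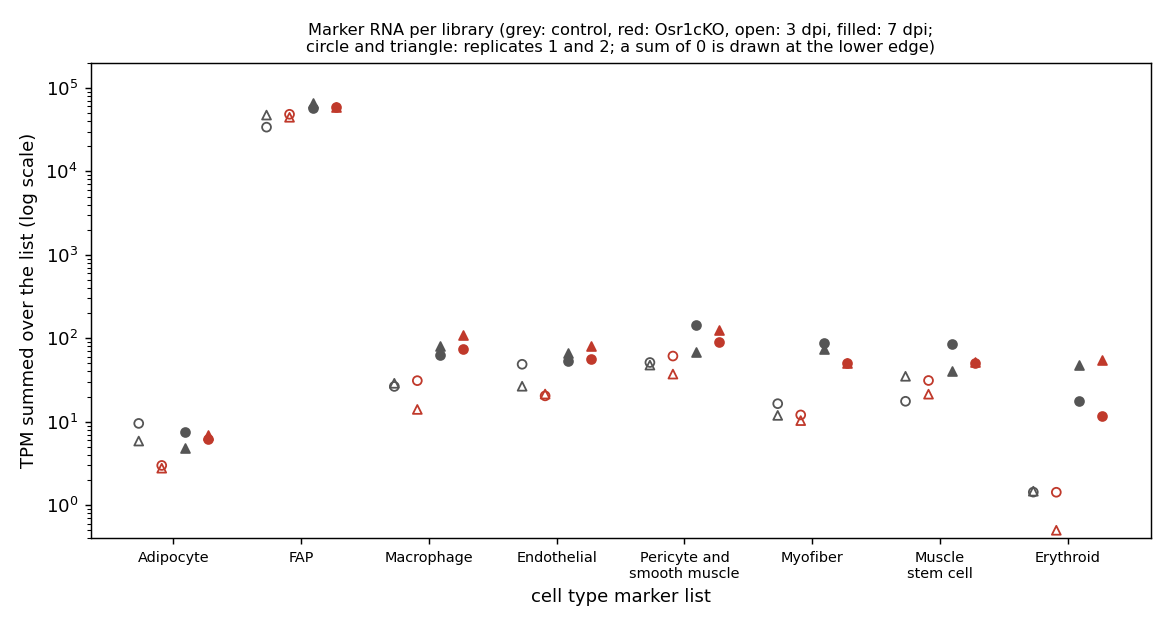
TPM summed over each cell type marker list (log axis) in each of the 8 libraries, with grey for control, red for Osr1cKO, open symbols for 3 dpi, filled symbols for 7 dpi, and circles and triangles for replicates 1 and 2; an erythroid sum of 0 is drawn near the lower edge. Adipocyte marker RNA lies between 2.77 and 9.54 TPM, while FAP marker RNA lies above 33894 TPM in every library.

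The start regions of the regulators are shown because the measured factors are known to act there. Of the 10 genes, 6 have an entry among the RefSeq promoter windows of GRCm38.p6, namely Pparg with 3 starts, Cebpa, Cebpb, Plin2, Cd36 and Adipoq; Cebpd, Fabp4, Lpl and Angptl4 do not. The C/EBP motif TTGCNNAA was searched on both strands of the 250 bases before each start. It occurred in 9.56% of all 32851 windows and, among the 8 windows of these genes, only in that of the most downstream Pparg start, where the adipocyte-type transcript Pparg2 begins. It began there at positions -215 and -16 from the start. These letters describe a match and not an occupied site. The window lies at chr6:115421816-115422065 on the plus strand, with the C/EBP matches in capitals.
Pparg: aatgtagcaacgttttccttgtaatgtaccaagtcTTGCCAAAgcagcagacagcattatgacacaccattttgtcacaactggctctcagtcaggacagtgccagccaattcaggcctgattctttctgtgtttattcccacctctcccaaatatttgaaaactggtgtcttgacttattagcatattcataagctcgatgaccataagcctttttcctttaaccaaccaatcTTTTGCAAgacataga
The core of the cAMP response element, TGACG, was searched the same way and occurred in 17.8% of all windows. The Cebpb window held it at -180, -53 and -7, and none of the other members' windows held it. The last 60 bases before the Cebpb start, chr2:167688855-167688914 on the plus strand, carry the matches at -53 and -7 in capitals.
Cebpb: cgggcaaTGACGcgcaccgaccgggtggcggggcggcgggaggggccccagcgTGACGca
The deposited tables hold 1 value per gene, so transcripts from the 3 Pparg starts were not separated.

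Among the 10 genes, Angptl4 and Cebpb had the highest mean TPM in every group and Adipoq the lowest. The order of different genes in TPM depends on the gene lengths used. At 3 dpi in control, mean TPM ran from Angptl4 (404 ± 214, SD, n = 2) and Cebpb (345 ± 208) through Plin2 (132 ± 1.05), Cebpd (120 ± 43.3), Lpl (76.2 ± 19.7) and Cebpa (39.1 ± 9.28) to Fabp4 (11.0 ± 13.6), Pparg (3.92 ± 2.87), Cd36 (0.430 ± 0.197) and Adipoq (0.0860 ± 0.0394). The neighbours Angptl4 and Cebpb, Plin2 and Cebpd, Cebpd and Lpl, and Fabp4 and Pparg overlapped between their libraries. At 7 dpi, Cebpd and Lpl stood above Plin2 in both genotypes, with no overlap between the neighbours Cebpd, Lpl and Plin2. In Osr1cKO at 7 dpi, Fabp4 (6.24 ± 0.930 TPM, SD, n = 2) and Cd36 (2.97 ± 0.842) lay above Pparg (2.15 ± 0.30), while in control at 7 dpi Fabp4 (2.90 ± 1.04) overlapped Pparg (3.21 ± 0.163), and Cd36 (1.48 ± 0.314) lay below it.

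**Figure D2:**
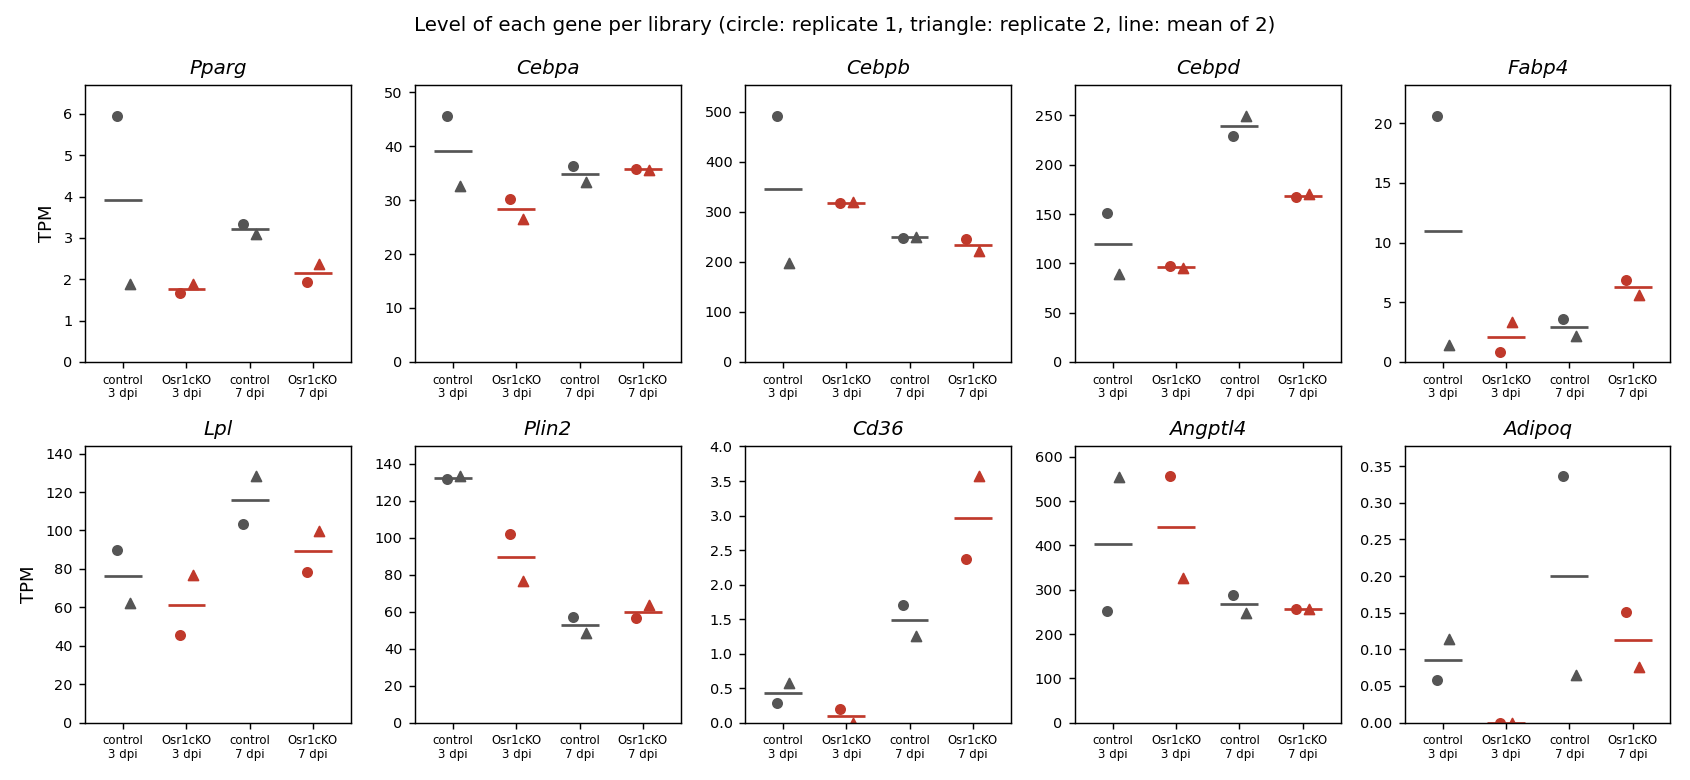
TPM of each of the 10 genes (vertical axis, from 0, with its own scale per gene) in the 4 groups, with circles for replicate 1, triangles for replicate 2 and a line at their mean. Pparg, Cebpb and Fabp4 are high and Angptl4 is low in control replicate 1 at 3 dpi; Cebpd is highest and Plin2 lowest in control at 7 dpi.

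Cebpb (chr2:167688915-167690418, plus strand), whose product opens the adipogenic cascade and also drives inflammatory genes, was at 492 and 198 TPM in control and at 317 and 319 in Osr1cKO at 3 dpi. At 7 dpi it was at 248 and 250 TPM in control and 246 and 222 in Osr1cKO. The control libraries at 3 dpi thus lay on either side of all 6 others. Cebpd (chr16:15887286-15891031, plus strand), a partner of C/EBPβ that responds to glucocorticoids and cytokines, was at 151 and 89.5 TPM in control and at 97.2 and 95.5 in Osr1cKO at 3 dpi. At 7 dpi it reached 229 and 250 TPM in control and 167 and 170 in Osr1cKO, so that all 4 libraries at 7 dpi lay above all 4 at 3 dpi, and the genotypes did not overlap at 7 dpi. Cebpa (chr7:35119293-35121928, plus strand), the factor that sustains Pparg in fat cells, varied least, with 45.7 and 32.5 TPM in control and 30.3 and 26.5 in Osr1cKO at 3 dpi, and 36.3 and 33.3 against 35.8 and 35.6 TPM at 7 dpi. Gene models on the opposite strand overlap Cebpb (Tmem189, 30.8 to 51.7 TPM) and Cebpd (Spidr, 9.43 to 22.2 TPM), and it is not stated whether counting used strand, so fragments of these pairs may be shared. Cebpa (Gm45091, 0.468 to 2.88 TPM) and Pparg (Gm44079, at most 0.297 TPM) have such neighbours at low level.

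TPM is normalized for length, here that of all exons of the gene model (2636 bases for Cebpa, 1504 for Cebpb and 3746 for Cebpd). Levels within the C/EBP family are set side by side on that scale, and their shares depend on these lengths. Cebpb made up 57.7% to 69.6% of the summed TPM of 5 family members (Cebpa, Cebpb, Cebpd, Cebpe and Cebpg) in the 4 libraries at 3 dpi and 44.8% to 51.8% at 7 dpi. The share of Cebpd was 20.8% to 26.1% at 3 dpi, and at 7 dpi 42.5% and 44.7% in control and 35.2% and 37.4% in Osr1cKO. Cebpa held between 5.77% and 9.50% in every library. Cebpg, which lacks an activation domain and dimerizes with the others, gave 17.1 to 27.5 TPM, and Cebpe, a factor of granulocytes, at most 0.194 TPM.

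**Figure D3:**
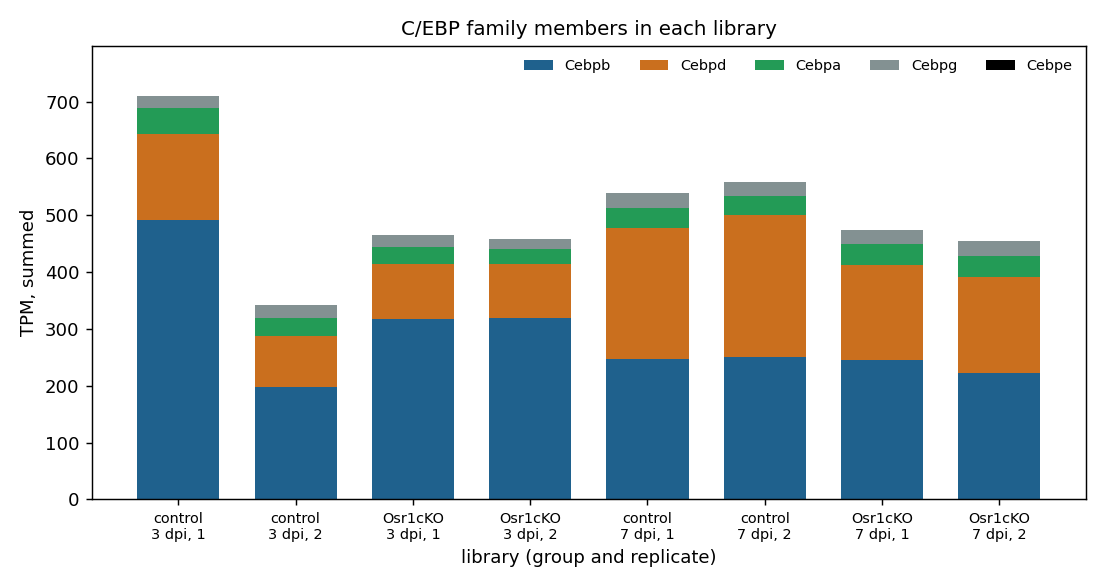
TPM of the 5 C/EBP family members, stacked (vertical axis, from 0), in each of the 8 libraries by group and replicate. Cebpb is the largest part at 3 dpi (57.7% to 69.6%), and Cebpd takes 35.2% to 44.7% at 7 dpi; the sum of control replicate 1 at 3 dpi (709 TPM) is the highest.

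Pparg (chr6:115360951-115490399, plus strand), the receptor required for fat cell formation, was low throughout. It stood at 5.95 and 1.89 TPM in control and 1.66 and 1.89 in Osr1cKO at 3 dpi, from 219, 71, 62 and 73 fragments. At 7 dpi it stood at 3.33 and 3.10 TPM in control and 1.94 and 2.36 in Osr1cKO, from 106, 101, 55 and 67 fragments. The genotypes did not overlap at 7 dpi, and at 3 dpi the replicates of the control differed more than the genotypes. Cebpa exceeded Pparg between 7.67 and 18.5 times in the 8 libraries. Adipoq (chr16:23146536-23158028, plus strand), the adipokine that marks mature adipocytes, came to 1 and 2 fragments in control and 0 and 0 in Osr1cKO at 3 dpi, and to 5 and 1 against 2 and 1 at 7 dpi. A count of 0 allows up to 3 fragments, which would be 0.172 and 0.166 TPM in the Osr1cKO libraries, so no difference in Adipoq could be detected at this depth, and it was not tested.

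Lipid uptake was represented by Lpl, Angptl4, Cd36 and Fabp4. Lpl (chr8:68880491-68907448, plus strand), the lipase that frees fatty acids from circulating triglyceride, was at 90.1 and 62.3 TPM in control and 45.6 and 76.8 in Osr1cKO at 3 dpi. It was at 103 and 128 TPM in control and 78.6 and 99.8 in Osr1cKO at 7 dpi, where the genotypes did not overlap. Angptl4 (chr17:33773750-33781830, minus strand), a secreted inhibitor of that lipase, varied widely at 3 dpi, with 253 and 555 TPM in control and 556 and 327 in Osr1cKO. At 7 dpi the 4 libraries lay within 248 to 287 TPM. In TPM the lipase stood below its inhibitor in every library, with a gene length of 10478 bases for Lpl and 3541 for Angptl4. In fragments the order varied. Lpl had 14816 against 9697 in control replicate 2 at 7 dpi, and 6041 against 24896 in Osr1cKO replicate 1 at 3 dpi. The order of these 2 genes thus depends on the lengths used.

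Cd36 (chr5:17781690-17888801, minus strand), a fatty acid translocase of the plasma membrane, was almost absent at 3 dpi, with 0.291 and 0.569 TPM in control and 0.198 and 0 in Osr1cKO. These values rest on 13, 26, 9 and 0 fragments, and a count of 0 allows up to 0.0638 TPM in the last library. At 7 dpi it was at 1.71 and 1.26 TPM in control and 2.37 and 3.57 in Osr1cKO, from 66, 50, 82 and 123 fragments. The Osr1cKO libraries thus lay below the control at 3 dpi and above it at 7 dpi. Cd36 is also high in macrophages and in capillary endothelium, and Pecam1, the endothelial antigen CD31, was at 3.56 and 4.73 TPM in control and 4.77 and 6.25 in Osr1cKO at 7 dpi, against 0.584 to 1.19 TPM at 3 dpi. Like Cd36, all 9 tested endothelial markers had negative estimates in Osr1cKO at 3 dpi (median -0.25) and 11 of 12 had positive ones at 7 dpi (median 0.24). Of 15 tested macrophage markers, 6 had positive and 9 negative estimates at 3 dpi (median -0.03), and 15 of 16 had positive ones at 7 dpi (median 0.13). The part of macrophages and endothelial cells in the Cd36 values was not tested.

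Fabp4 (chr3:10204088-10208576, minus strand), a cytosolic fatty acid carrier of adipocytes that macrophages and capillaries also make, ranged widely, with 20.6 and 1.38 TPM in control and 0.827 and 3.32 in Osr1cKO at 3 dpi. At 7 dpi it was at 3.64 and 2.16 TPM in control and 6.90 and 5.59 in Osr1cKO. The difference between the control replicates at 3 dpi, 3.18 on the log2(TPM + 1) scale, exceeded that of 99.8% of 17371 genes. The adipocyte marker sum, 9.54 TPM, was highest in that same control replicate 1, but by gene 9 of 20 adipocyte markers were higher there than in control replicate 2, 8 were lower and 3 were equal. Of the 12 endothelial markers, 6 were higher and 6 lower; their sums of 48.8 and 26.6 TPM differed mainly through Kdr, a vascular endothelial receptor at 16.8 and 2.25 TPM, and Tek, the angiopoietin receptor at 25.4 and 16.5 TPM, while Pecam1 was at 1.19 and 1.10 TPM. Of the 16 macrophage markers, 3 were higher and 13 lower. The part of other cells in that library's Fabp4 was not tested.

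Plin2 (chr4:86648386-86670060, minus strand), which coats small lipid droplets in most cell types, was the member with the closest control replicates at 3 dpi, at 132 and 133 TPM. Osr1cKO had 102 and 76.8 TPM at that day. At 7 dpi control had 56.9 and 48.3 TPM and Osr1cKO 56.4 and 63.6 TPM. All libraries at 7 dpi lay below all libraries at 3 dpi, and the genotypes overlapped at 7 dpi but not at 3 dpi.

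The comparison of Osr1cKO with control at 3 dpi asked whether loss of Osr1 alters these genes in the early, inflammatory phase of regeneration. Plin2 fell in Osr1cKO FAPs by 0.57 on the log2 scale (standard error 0.18), or 1.49-fold lower in TPM + 1. It was the only one of the 9 genes tested to be called by the thresholds that the study's methods set for this day, which are a change of more than 1.2-fold and an unadjusted p below 0.05. Its adjusted p was 0.774 in limma with Benjamini-Hochberg adjustment over 15699 genes, of which 6.27% were called, 3.87% lower and 2.4% higher. The share of members called, 1 of 9, rests on a single gene, and 7 of the 9 had negative estimates with a median of -0.38, against 0.01 over all genes tested.

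Pparg had a log2 fold change of -0.69 (95% confidence interval -1.80 to 0.42), Cebpa -0.43 (-0.95 to 0.09), Fabp4 -1.35 (-4.13 to 1.42) and Cebpb 0.03 (-1.06 to 1.12). Cebpd was at -0.26 (-0.92 to 0.39), Lpl at -0.33 (-1.08 to 0.42), Cd36 at -0.38 (-0.82 to 0.06) and Angptl4 at 0.19 (-1.005 to 1.38). These intervals all include 0. Pparg, Cebpa, Plin2 and Cd36 did not overlap between genotypes, 4 of 9 members beside 36.2% of all genes, and for Pparg the gap is too small to show in the digits given above. Control replicate 1 set much of this. Without it, the estimates were -0.07 for Pparg, 0.23 for Fabp4 and 0.67 for Cebpb. Without control replicate 2, they were -1.33 for Pparg, -2.95 for Fabp4, -0.67 for Cebpa, -0.63 for Cebpb and -0.64 for Cebpd. Plin2 stayed between -0.80 and -0.35 when each library was left out, and was called only without Osr1cKO replicate 1; it was -0.59 and -0.57 without control replicates 1 and 2 and -0.35 without Osr1cKO replicate 2. In these fits the group with 1 library left is assumed to vary like the other.

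**Figure D4:**
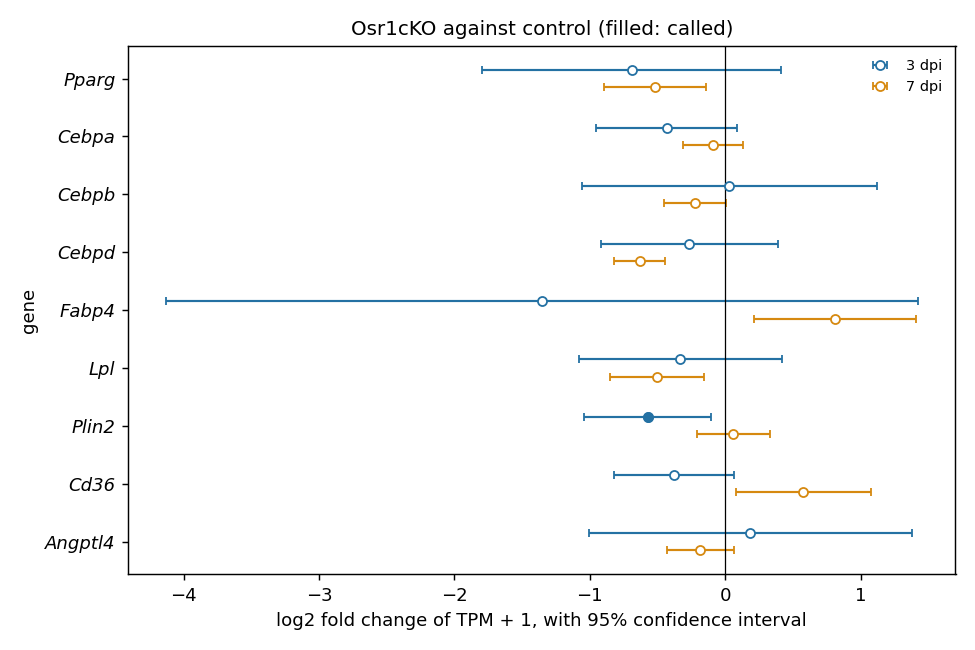
Log2 fold change of TPM + 1 in Osr1cKO against control for 9 of the genes (horizontal axis) at 3 dpi (blue) and 7 dpi (orange), with 95% confidence intervals from limma; filled points were called. Only Plin2 at 3 dpi is filled; the interval of Fabp4 at 3 dpi reaches from -4.13 to 1.42, and those of Pparg, Cebpd, Fabp4, Lpl and Cd36 at 7 dpi leave out 0.

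At 7 dpi, when new myofibers form, the replicates lay closer. Estimates for Cebpd, Pparg and Lpl were negative and those for Fabp4 and Cd36 positive in Osr1cKO, but none of the 9 was called at over 1.2-fold and an adjusted p under 0.1. In the limma fit used here, the study's threshold at this day called 0.0664% of 16578 genes, 11 in all. With limma-voom on recovered fragments it called 199. The paper, which used DESeq2, reports far more than 11 genes at this day, so these counts depend on the model. Cebpd came nearest, with a log2 fold change of -0.63 (95% confidence interval -0.82 to -0.44, adjusted p = 0.150 in limma), and ranked 26th by p among all genes. Pparg was at -0.52 (-0.89 to -0.14, adjusted p = 0.316) and Lpl at -0.50 (-0.85 to -0.15, adjusted p = 0.305). Fabp4 was at 0.81 (0.21 to 1.41, adjusted p = 0.318) and Cd36 at 0.58 (0.08 to 1.08, adjusted p = 0.351). The added 1 understates changes of low genes, and with a pseudocount of 0.1 the estimates were 0.99 for Fabp4 and 0.82 for Cd36. Mean TPM as deposited, neither rescaled nor with 1 added, was 2.15 times as high for Fabp4 and 2.0 times as high for Cd36 in Osr1cKO as in control.

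At the unadjusted threshold used for 3 dpi, these 5 of 9 genes passed, 3 lower and 2 higher in Osr1cKO, beside 11.1% of all genes tested, 5.83% lower and 5.3% higher. Cebpb was at -0.22 (-0.45 to 0.01), Cebpa at -0.09 (-0.31 to 0.13), Angptl4 at -0.18 (-0.43 to 0.07) and Plin2 at 0.06 (-0.21 to 0.33). The libraries of the genotypes did not overlap for 6 of the 9, beside 53.5% of all genes. By the unadjusted threshold, 6 of 10 tested myofiber markers were lower at this day, and 3 of 12 endothelial and 1 of 16 macrophage markers were higher. All 16 FAP markers had negative estimates (median -0.24), and 6 of them passed. The part of these shifts in the values of the members was not tested.

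The call of Cebpd depended on the libraries and the model. It was called at -0.69 without control replicate 1 (adjusted p = 0.0260) and at -0.58 without control replicate 2 (adjusted p = 0.0647), and by limma-voom on recovered fragments at -0.64 (adjusted p = 0.0332), while over all alternatives its adjusted p ran up to 0.635, in the fit of all 8 libraries. Without control replicate 1, Fabp4 was at 1.10 and Lpl at -0.65. Deposited TPM without further scaling moved the median of all genes at 7 dpi to 0.11, and on that scale Cebpd was at -0.50 and Cebpa changed sign to 0.04.

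From 3 to 7 dpi, Cebpd and Cd36 rose and Plin2 fell in both genotypes. In control FAPs, Cebpd rose by 1.09 on the log2 scale (standard error 0.25, limma adjusted p = 0.0265), Cd36 by 0.82 (0.18, adjusted p = 0.0251) and Lpl by 0.67 (0.20, adjusted p = 0.0569), while Plin2 fell by 1.26 (0.13, adjusted p = 0.00494). In Osr1cKO FAPs, Cd36 rose by 1.81 (0.19, adjusted p = 0.00227), Cebpd by 0.74 (0.08, adjusted p = 0.00269) and Fabp4 by 1.32 (0.42, adjusted p = 0.0495). Plin2 fell by 0.62 (0.16, adjusted p = 0.0288), Cebpb by 0.51 (0.11, adjusted p = 0.0161) and Angptl4 by 0.79 (0.26, adjusted p = 0.0578).

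Changes with the day were the rule in these cells. In control, 4 of 9 members were called, 3 higher and 1 lower, beside 50.0% of 16525 genes, 22.7% higher and 27.3% lower. In Osr1cKO, 6 of 9 were called, 3 higher and 3 lower, beside 56.6% of 16279 genes, 27.2% higher and 29.4% lower. The days did not overlap for 4 of 9 members in control, beside 74.9% of all genes, and for all 9 tested members in Osr1cKO, beside 77.2%. Cebpd, Plin2 and Cd36 were called in the same direction in both genotypes, 3 of 9 or 33.3%, beside 41.2% of the 15823 genes tested in both.

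Pparg and Cebpa, the late factors of the cascade, were not called between the days in either genotype. Pparg was at -0.04 (95% confidence interval -1.16 to 1.07) in control and 0.14 (-0.24 to 0.52) in Osr1cKO, and Cebpa at -0.09 (-0.56 to 0.38) and 0.26 (-0.03 to 0.56). In control, which 3 dpi library is used sets the direction for several members. Without control replicate 1 of 3 dpi, the estimates were 0.57 for Pparg, 0.71 for Fabp4, 0.37 for Cebpb and -1.02 for Angptl4. Without control replicate 2 of 3 dpi, they were -0.63 for Pparg, -2.40 for Fabp4, -0.87 for Cebpb and -0.27 for Cebpa. Cebpd (0.78 to 1.44), Cd36 (0.67 to 0.99), Lpl (0.46 to 0.91) and Plin2 (-1.34 to -1.08) kept their direction over the 4 fits that left out a library. Only Plin2 was called without control replicate 1 of 7 dpi and none of the 9 without control replicate 2 of 7 dpi, where none of 15589 genes were called either.

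In Osr1cKO, Cebpd kept its call in each of the 4 fits without a library (0.69 to 0.81). Without Osr1cKO replicate 1 of 7 dpi, only Cebpd and Cebpb (-0.56) were called, and without replicate 2 only Cebpd, with Cd36 under the filter in both. Cebpa (0.35) was also called without Osr1cKO replicate 1 of 3 dpi, and Lpl (0.85) without replicate 2 of 3 dpi. Since macrophage, endothelial and pericyte marker sums were higher at 7 dpi in both genotypes, these values move with the day beside those of Cd36, Fabp4 and Lpl, and their part was not tested.

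**Figure D5:**
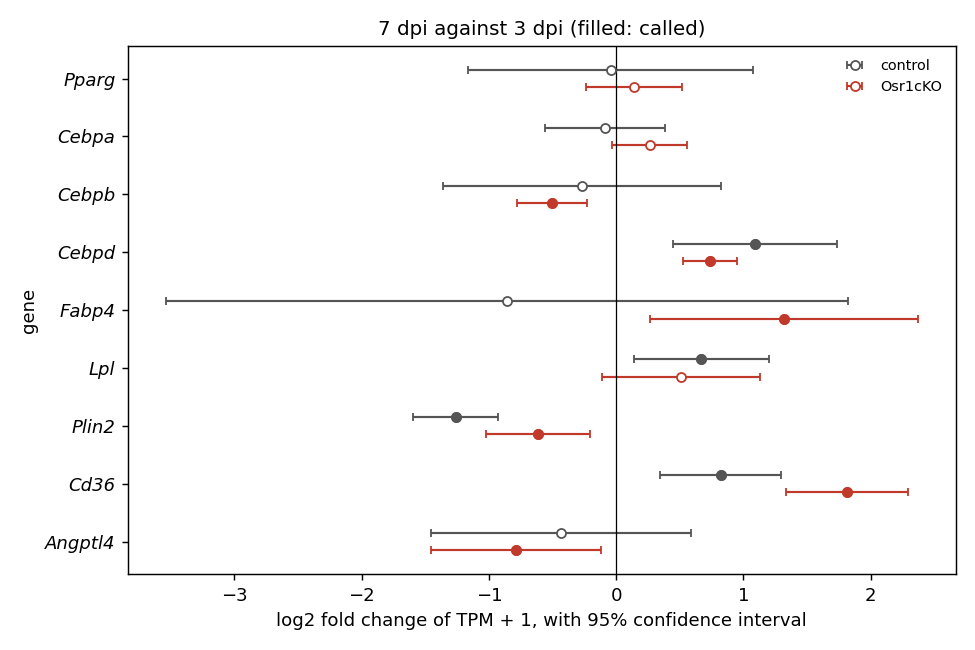
Log2 fold change of TPM + 1 at 7 dpi against 3 dpi for 9 of the genes (horizontal axis) in control (grey) and Osr1cKO (red), with 95% confidence intervals from limma; filled points were called. Cebpd and Cd36 lie to the right of 0 and Plin2 to its left in both genotypes, and the control intervals of Pparg, Cebpb, Fabp4 and Angptl4 all include 0.

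The genotype by day interaction, fitted over all 8 libraries, asked whether the effect of Osr1 loss differed between the days. None of the 9 members and 0.0% of 17371 genes were called in limma at an adjusted p under 0.1, while 1207 genes had an unadjusted p under 0.05. The interaction was 0.95 for Cd36 (standard error 0.29, adjusted p = 0.635) and 0.59 for Plin2 (0.23, adjusted p = 0.713), the only members under an unadjusted p of 0.05. For Fabp4 it was 2.13 with a 95% confidence interval from -0.90 to 5.16, and for Cebpd -0.41 with an interval from -1.06 to 0.23. A difference between the days was therefore not shown for Plin2, called at 3 dpi and not at 7 dpi, nor for the other members.

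The wider network of the regulators was described with lists of other genes. Their counts stand beside the shares of all genes. Between the days these were 22.7% called higher and 27.3% lower in control, and 27.2% higher and 29.4% lower in Osr1cKO. Between genotypes they were 2.4% higher and 3.87% lower at 3 dpi. At 7 dpi, by the unadjusted threshold, they were 5.3% higher and 5.83% lower. Of the genes named from these lists for 3 dpi, Ucp2 alone was called in each of the 4 fits that left out a library of that day. Zfp467, Hes1, Dlk1 and Ddit3 lost their call without Osr1cKO replicate 2, Hilpda without that library or control replicate 2, Acaa2 and Cpt1a in all but the fit without control replicate 1, and Gpam in all but the fit without control replicate 2. In that last fit, the median estimate was -0.16 over the transcription regulators, -0.24 over the restraining genes and -0.21 over the lipolysis genes. It was 0.12 over the triglyceride synthesis genes, beside 0.0064 over all genes. Of 34 further adipogenic transcription regulators, 1 was called lower in Osr1cKO at 3 dpi, Zfp467, a zinc finger factor that promotes fat over bone differentiation, with 7.00 and 7.24 TPM in control and 4.03 and 3.48 in Osr1cKO (log2 fold change -0.77, adjusted p = 0.774). None was called at 7 dpi in limma (5 lower and none higher by the unadjusted threshold), where 29 of 34 had negative estimates with a median of -0.10, against 0.01 over all genes. With the day, 10 of 34 rose and 8 fell in control, and 9 rose and 6 fell in Osr1cKO. Srebf1, the driver of fatty acid synthesis, fell by 0.85 in control (62.2 and 63.9 to 32.5 and 33.9 TPM) and by 0.83 in Osr1cKO (61.0 and 61.6 to 36.0 and 35.3 TPM). Nfia, which acts beside PPARγ in fat cells, rose by 1.05 in control, from 23.3 and 21 to 41.6 and 48.9 TPM. In Osr1cKO Nfia rose by 0.48, from 22.0 and 28.5 to 34.2 and 39.6 TPM. Rxra, the partner with which PPARγ binds DNA, fell by 0.43 in control, from 51.0 and 46.9 to 34.4 and 34.9 TPM. In Osr1cKO Rxra fell by 0.63, from 45.1 and 52.4 to 31.3 and 33.6 TPM.

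Of 23 genes known to restrain adipogenesis, 3 were called lower in Osr1cKO at 3 dpi and none higher. Hes1, a Notch target, went from 121 and 111 TPM in control to 80.8 and 76.1 TPM in Osr1cKO (log2 fold change -0.56), Dlk1, the preadipocyte factor, from 11.1 and 9.77 to 6.08 and 4.77 TPM (-0.83), and Ddit3, a C/EBP relative that blocks the other C/EBPs, from 54.2 and 50.02 to 35.3 and 25.6 TPM (-0.77), each with an adjusted p of 0.774. None of 22 was called at 7 dpi (4 lower and none higher by the unadjusted threshold). Between the days 9 of 23 rose and 5 fell in control and 10 rose and 3 fell in Osr1cKO. Dlk1 rose most among those named, by 2.83 in control to 64.8 and 91.8 TPM and by 2.54 in Osr1cKO to 43.2 and 32.9 TPM. Gata2, a factor of preadipocytes, fell by 2.10 in control, from 8.52 and 7.63 to 1.27 and 0.856 TPM. In Osr1cKO it fell by 1.22, from 4.51 and 7.14 to 2.37 and 1.62 TPM. Klf2, a Krüppel-like factor that represses Pparg, rose by 1.28 in control, from 216 and 213 to 468 and 539 TPM. In Osr1cKO Klf2 rose by 1.36, from 199 and 177 to 489 and 519 TPM.

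Among 19 other genes of fatty acid uptake and lipoprotein lipolysis, none of 17 tested was called between genotypes at 3 dpi and none of 18 at 7 dpi (4 higher and none lower by the unadjusted threshold). With the day, 3 rose and 11 fell in control and 4 rose and 9 fell in Osr1cKO, with medians of -0.67 and -0.48 beside -0.01 and -0.0011 over all genes. Cav1, the caveolar protein that also serves fatty acid entry, fell by 1.60 in control (735 and 738 to 241 and 226 TPM) and by 0.96 in Osr1cKO (573 and 653 to 320 and 338 TPM). Lpl and Cd36, which rose in control, thus moved against the direction of the larger number in their list.

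Of 15 other lipid droplet proteins, 9 were tested between genotypes. Hilpda, an inhibitor of the triglyceride lipase ATGL that is induced by lipid and hypoxia, was called lower beside Plin2 at 3 dpi, with 52.4 and 58.8 TPM in control and 44.8 and 37.5 in Osr1cKO (log2 fold change -0.43, adjusted p = 0.784), and none at 7 dpi by either threshold. Between the days 2 of 10 rose and 3 fell in control, and 3 of 9 rose and 3 fell in Osr1cKO. G0s2, another inhibitor of ATGL, rose by 1.30 in control, from 3.96 and 3.25 to 9.16 and 10.8 TPM, and by 1.40 in Osr1cKO, from 3.90 and 2.37 to 9.91 and 10.3 TPM.

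For triglyceride synthesis, 1 of 15 tested genes was called at 3 dpi, Gpam, which catalyses the first step, higher in Osr1cKO (14.7 and 18.1 against 21.4 and 26.3 TPM, log2 fold change 0.52, adjusted p = 0.784), and none at 7 dpi (1 higher and 2 lower by the unadjusted threshold). With the day 2 of 14 rose and 7 fell in control and 3 of 15 rose and 8 fell in Osr1cKO; Agpat2, whose loss causes lipodystrophy, fell by 0.88 and 0.74. For triglyceride lipolysis, none of 7 tested genes was called between genotypes at either day (1 higher at 7 dpi by the unadjusted threshold), 2 rose and 1 fell in control, and 4 rose and none fell in Osr1cKO. Ces1d, a carboxylesterase of lipid droplets, rose by 2.71 in control, from 0.847 and 0.995 to 11.6 and 10.8 TPM, and by 3.14 in Osr1cKO, from 1.40 and 0.451 to 14.7 and 17.4 TPM. Pnpla2, which encodes ATGL itself, rose by 0.87 in Osr1cKO, from 10.4 and 15 to 22.4 and 27.3 TPM.

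The list of PPAR target genes held 27 genes beside the 5 members in it. At 3 dpi, 4 of 23 were called lower and none higher in Osr1cKO. Ucp2, a mitochondrial carrier, fell from 51.5 and 62.3 TPM to 8.51 and 5.07 TPM (log2 fold change -2.92, adjusted p = 0.491), and Acaa2 and Cpt1a, enzymes of mitochondrial fatty acid oxidation, by 0.42 and 0.44. At 7 dpi none of 23 was called (1 higher and 2 lower by the unadjusted threshold). With the day, 3 of 24 rose and 8 fell in control and 6 of 23 rose and 4 fell in Osr1cKO. The control median was -0.12, and it was -0.058 without control replicate 1 of 3 dpi and -0.25 without replicate 2. Ucp2 fell by 2.53 in control to 8.58 and 8.65 TPM. Fabp3, the muscle-type fatty acid carrier, rose by 1.31 in control and 1.59 in Osr1cKO, and the myofiber marker sums were also higher at 7 dpi in each genotype; their part in it was not tested.

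The members did not vary as a block over the 8 libraries. Over all 8, Cebpd and Lpl had the highest correlation of any pair (Pearson's r of log2(TPM + 1) = 0.86, and 0.86 without control replicate 1 of 3 dpi), while Lpl ran opposite to its inhibitor Angptl4 (r = -0.86, and -0.87 without that library). Other pairs moved with that library. Pparg and Cebpb were at 0.60 with it and -0.27 without it, and Pparg and Fabp4 at 0.73 and 0.24. Over the 7 libraries without it, Plin2 and Angptl4 (0.95, against 0.61 with it), Cebpa and Cd36 (0.90 against 0.33), Pparg and Cebpd (0.89 against 0.51) and Pparg and Lpl (0.86 against 0.57) lay above Cebpd and Lpl. The libraries share their day, and these values are descriptions.

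Of 10386 candidate genes with a mean of at least 5 TPM, those most like Pparg over the 8 libraries were Akap12 (r = 0.97), Jak2 (0.96) and Id3 (0.96), and those most like Cebpa included Iffo2 (0.98) and Tut7 (0.97). Near to Cebpb were Ercc2 and Per1 (0.96 each), and nearest to Cebpd were Itgbl1, Fgl2 and Crtc2 (0.99 each). Fabp4 was nearest to Snora17 (0.99), Phf12 (0.97) and Yap1 (0.97), Lpl to Ncoa2, Eda and Dapk1 (0.97 each), and Plin2 to Atp10a, Eif4e3 and Ifitm3 (0.99 each). Cd36 was nearest to Zfp57, Arl6ip5 (0.99 each) and Cyth1 (0.98), and Angptl4 to Gm21887 (0.99), Ggcx (0.98) and Cdc42ep1 (0.96). With 8 libraries and this many candidates, high values are common. Control replicate 1 of 3 dpi was the highest library for Fabp4 (20.6 TPM) and Snora17 (71.2), and for Pparg (5.95) and Akap12 (118). Likeness without that library was not tested. No member was among the 3 nearest of another, but Pparg, Cd36 and Adipoq, with means under 5 TPM, were not candidates.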

How the data were processed

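Per-gene values were analysed for 8 libraries of sorted FAPs, 2 per genotype and day, grouped by their labels. The authors aligned stranded poly(A) paired-end reads to mm10 with STAR, normalized fragment counts with DESeq2 and deposited TPM, a length-normalized share of transcripts; the counter, annotation and strand setting are not given in the sources used here. Of 55385 entries per library, 109 repeats of 106 symbols were left out. Fragments were recovered from TPM and gene length, and 98.6% to 98.9% of values under 40 fragments came within 0.02 of a whole number. They served the filter, which kept genes with at least 10 fragments in 2 libraries and 15 over the fit (a mean of at least 1 TPM where no length was known), and the limma-voom alternative.

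TPM were rescaled by trimmed means (30% of ratios and 5% of levels trimmed), 1 was added, and log2 values were fitted with limma 3.58.1 in R 4.3.3 for each comparison, with Benjamini-Hochberg adjustment over all genes tested. A gene was called, after the study's methods, at over 1.2-fold with an unadjusted p under 0.05 for genotype at 3 dpi and with an adjusted p under 0.1 at 7 dpi. For the days the 7 dpi threshold, and for the interaction an adjusted p under 0.1, were chosen here. Overlap between groups was judged on deposited TPM. Named were all 10 members, up to 3 called genes of each pathway list with the smallest p per comparison and no overlap between groups, and the 3 genes most correlated with each member (some that these rules pick are not reported here); marker genes, among them Pecam1, Kdr and Tek, were named after their values were seen. The members and lists were chosen with earlier results of these data known. Fits were tested on simulated counts with the same spread setting for every gene and library. Those tests do not cover the wider spread of the control pair at 3 dpi. At 3 dpi the replicates are different mice and at 7 dpi different pools, so p-values rest on a spread between 2 libraries. Depth was 36516528 to 51096358 fragments, and floors of 3 fragments cover counting error only. Python 3.11.15, pandas 2.3.3, NumPy 2.4.6 and SciPy 1.17.1 were used. Alternatives changed the scaling, filter, pseudocount, threshold, model, replicate block and libraries.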

Additional observations from a re-analysis of the deposited data

Results flagged for a closer look

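Cd36 was picked out because its genotype difference changed direction between the days: the Osr1cKO values were under those of the control at 3 dpi (0.198 and 0 against 0.291 and 0.569 TPM) and over them at 7 dpi (2.37 and 3.57 against 1.71 and 1.26 TPM). The genotype by day interaction was 0.95 on the log2(TPM + 1) scale (limma adjusted p = 0.635), which does not pass the threshold over 17371 genes. It lay between 0.75 and 1.14 when each library was left out. The pick required libraries apart in opposite directions at the 2 days, so the sign of these values was set by the pick. The values at 3 dpi rest on 13 and 26 fragments in control and 9 and 0 in Osr1cKO. Endothelial markers, whose cells are known to express Cd36, moved the same way: 9 of 9 tested had negative estimates at 3 dpi, 11 of 12 positive ones at 7 dpi, and all 12 had positive interactions (median 0.56, beside -0.03 over all genes), 4 of them over 1.2-fold with an unadjusted p under 0.05. Macrophage markers were split at 3 dpi, with 6 positive and 9 negative estimates, and 15 of 16 were positive at 7 dpi. Their interactions were positive for 13 of 16 (median 0.16). The part of endothelial cells and macrophages in the Cd36 values was not tested.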

How the results depend on the processing

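With 2 libraries per group, single libraries set many calls. When each library was left out in turn, between 0 and 5 members were called for genotype at 3 dpi (1 in the reported fit), 0 and 3 at 7 dpi (0), 0 and 8 for the day in control (4), 1 and 7 for the day in Osr1cKO (6), and 0 for the interaction. Over all genes the counts ran from 371 to 2804 at 3 dpi (985), 7 to 468 at 7 dpi (11), 0 to 9952 for the day in control (8258), 5555 to 9032 for the day in Osr1cKO (9215) and 0 to 108 for the interaction (0).

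Estimates changed sign on leaving out a library at 3 dpi for Angptl4 (-0.39 to 0.75), Cebpb (-0.63 to 0.67), Cebpd (-0.64 to 0.094), Fabp4 (-2.95 to 0.23) and Lpl (-0.68 to 0.011), and at 7 dpi for Plin2 (-0.064 to 0.18). They did so for the day in control for Angptl4 (-1.02 to 0.19), Cebpa (-0.27 to 0.13), Cebpb (-0.87 to 0.37), Fabp4 (-2.40 to 0.71) and Pparg (-0.63 to 0.57), and for the interaction for Angptl4 (-1.02 to 0.19), Cebpb (-0.91 to 0.32), Lpl (-0.57 to 0.14) and Pparg (-0.46 to 0.74).

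Of 457 member estimates under the other alternatives, 438 kept direction and side of the threshold, 11 lost and 7 gained a call, and 1 changed sign (Cebpa at 7 dpi, 0.037 with deposited TPM not rescaled). An adjusted p under 0.05 left 0 members and 0 genes at 3 dpi and 0 genes at 7 dpi. The fit of all 8 libraries called 2 members and 1834 genes at 3 dpi, 0 genes at 7 dpi and 3 members for the day in Osr1cKO. At 7 dpi, limma-voom called 1 member and 199 genes, and TPM not rescaled, a filter of mean TPM at least 1 and no filter called 0 genes each. With no filter, 1 member was called for the day in control and 40 genes for the interaction, where the TPM filter gave 1 gene and a pseudocount of 0.1 gave 3. The cause was not tested.

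Samples of the same number were not shown to be paired: their deviations correlated at -0.128 at 3 dpi, 0.061 at 7 dpi, -0.158 for the day in control and -0.086 in Osr1cKO. With the replicate block, 980 genes and 1 member were called at 3 dpi, 27 genes and 0 members at 7 dpi, 7115 genes and 4 members for the day in control, 8735 genes and 7 members in Osr1cKO, and 0 genes and 0 members for the interaction. The crossed pairing, added after seeing the data, called 1168 genes and 2 members at 3 dpi and 8395 genes and 4 members for the day in control. Depth limits Adipoq, at 0 to 5 fragments, and Cd36 at 3 dpi.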

Other observations

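Glucocorticoids are part of the usual adipogenic cocktail, and Cebpd and Angptl4 are among their known targets. Of 17 further glucocorticoid response genes, 2 of 16 tested were called lower and none higher in Osr1cKO at 3 dpi, 14 of 16 had negative estimates, and the median was -0.25 beside 0.01 over all genes, of which 3.87% were called lower. This rests on control replicate 1. Without it, 7 of 16 were negative with a median of 0.18, beside -0.001 over all genes. Without control replicate 2, all 16 were negative with a median of -0.67, beside 0.0064 over all genes. Sult1a1, a sulfotransferase, stood at 18.2 and 3.49 TPM in control against 1.05 and 1.42 in Osr1cKO (log2 fold change -2.06, limma adjusted p = 0.774), and its control replicates stood far apart. Cdkn1a, the cell cycle inhibitor p21, stood at 373 and 274 against 208 and 238 TPM (-0.52, adjusted p = 0.784), and was called without control replicate 2 but not when any other library of that day was left out; Sult1a1 lost its call without either Osr1cKO library. None of 17 was called at 7 dpi, where 3 were higher and 2 lower by the unadjusted threshold, beside 5.3% and 5.83% of all genes.

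With the day, 2 of 17 rose and 3 fell in control, beside 22.7% and 27.3% of all genes, and 5 of 16 rose and 4 fell in Osr1cKO, beside 27.2% and 29.4%. The control estimates turn on the same libraries, with a median of 0.52 without control replicate 1 of 3 dpi and -0.53 without replicate 2. Over all genes the medians of those fits were 0.0084 and 0.0081. Fkbp5, a chaperone that responds to the glucocorticoid receptor, fell by 1.84 in control, from 87.9 and 58.6 to 16.7 and 20.6 TPM, and by 1.28 in Osr1cKO, from 41.6 and 56.6 to 24.4 and 16.9 TPM. Cebpd rose over the same days in both genotypes. Dusp1, a phosphatase, rose by 0.86 in control, from 368 and 435 to 700.2 and 699.1 TPM. In Osr1cKO Dusp1 rose by 1.17, from 389 and 246 to 625 and 845 TPM. Pdk4, which limits pyruvate oxidation, rose by 1.29 in Osr1cKO, from 1.69 and 2.91 to 7.76 and 6.67 TPM. In control Pdk4 was at 0.36 and was not called. Control replicate 1 at 3 dpi was the highest library for Sult1a1, Fkbp5 and Cdkn1a.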
